A study of Mus musculus with 2 samples.

Results

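Open CpG-poor promoter regions of coding genes were examined in DNase-seq data from mouse hippocampus. DNase I cuts DNA where nucleosomes do not shield it, so a region rich in cuts is read as accessible, or open, chromatin. A coding start was called CpG-poor where the ratio of observed to expected CpG dinucleotides, over 500 bp on either side of the outermost annotated start of the gene, was below 0.35. A region was a member where it came from the shorter deposited list of replicate 1, overlapped a region of the shorter list of replicate 2 by at least 1 bp, lay on chromosomes 1 to 19 and came within 1000 bp of such a start. The rule gave 719 regions, out of 46876 regions shared by both libraries and 53049 regions of replicate 1 on these chromosomes. They stood at 639 of 7469 CpG-poor coding starts. The remaining 14358 shared regions near coding starts, here called other promoter regions, served for comparison, as did 26224 shared regions farther than 1000 bp from any annotated start, here called distal.

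The study had 1 group of 2 libraries, which the labels call biological replicates 1 and 2. Each came from its own sample of hippocampus, labelled as a layer of that structure and as holding 3 males of the hybrid strain B6CASTF1/J at 10 days of age. Both carry the same donor label, and the tissue was not sorted, so a region open in few cells and a region weakly open in many cannot be told apart. Marker genes were counted to describe the tissue. In replicates 1 and 2, starts of 4 of 5 neuronal markers and 6 and 7 of 8 hippocampal excitatory ones were open. Of markers of other organs 0 of 5 and of red blood cells 0 of 3 were open in either. GABAergic markers were open at 0 and 2 of 4 and microglial ones at 0 and 2 of 7. Astrocyte markers were open at 4 of 7 in each library and oligodendrocyte ones at 3 of 7. Endothelial and mural markers were open at 3 and 1 of 6. The sets differ in CpG class, with 1 of the 5 neuronal and 2 of the 8 excitatory starts CpG-poor. Of other organs 4 of 5 were CpG-poor, of red blood cells 3 of 3 and of microglia 7 of 7. Tissue and CpG class therefore cannot be told apart in this contrast. The labels name no treatment or second condition. Values are therefore given for each library, and no test between conditions was possible. The sources used here do not state how deeply either library was sequenced.

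Most mammalian coding genes start in CpG islands, stretches that keep their CpG dinucleotides because they are usually unmethylated, and such promoters tend to be open in many tissues. CpG-poor promoters are more typical of genes used in 1 or few cell types, and many are closed wherever the gene is silent. Classical CpG-poor promoters may carry a TATA box, the letters that position the transcription machinery a short way upstream of the start.

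Upstream sequences of 3 members are shown first, because they carry the motifs that the results below turn on. They are reference sequence of GRCm38 (mm10), 5′ to 3′ on the strand of the gene, and end at the base before the annotated start. H2-Aa encodes a chain of the class II antigen-presenting molecule, Gfap the intermediate filament of astrocytes, and Fez1 a transport adaptor of growing axons. The 3 stretches are chr17:34287824-34287983 on the minus strand, chr11:102900913-102901072 on the minus strand and chr9:36821704-36821863 on the plus strand. Capitals in H2-Aa and Fez1 mark TGGCAAC, which is GTTGCCA of the factor family RFX read on the other strand, and ATTGG, which is the CCAAT box read on the other strand. H2-Aa also has the cyclic AMP response element TGACGTCA in capitals. In Gfap the capitals mark a match to the CTCF motif (CCA, any 2 bases, AG, any 2 bases, GGCA) on the other strand. These members were picked after their values had been seen.
H2-Aa: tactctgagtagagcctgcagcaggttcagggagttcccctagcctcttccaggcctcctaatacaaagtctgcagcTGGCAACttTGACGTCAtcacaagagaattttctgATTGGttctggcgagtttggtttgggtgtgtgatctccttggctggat
Gfap: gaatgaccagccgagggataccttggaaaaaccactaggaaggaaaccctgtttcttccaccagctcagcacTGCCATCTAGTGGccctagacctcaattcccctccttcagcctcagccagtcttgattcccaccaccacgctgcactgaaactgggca
Fez1: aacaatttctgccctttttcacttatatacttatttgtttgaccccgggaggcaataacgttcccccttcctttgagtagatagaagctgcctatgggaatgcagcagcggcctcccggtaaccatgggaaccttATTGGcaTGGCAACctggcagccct

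CTCF, a zinc finger protein that anchors chromatin loops, has a long motif that was matched in 38 of the members without a CpG-richer start near and in 4 with one. Shown are 3 more matches, all under footprints in both libraries, from regions of Pga5 (a pepsinogen), Muc1 (a mucin of epithelia) and Elf3 (an epithelial transcription factor). These 3 matches lay at -590, -746 and -725 bp from the starts (negative is upstream), not at the starts themselves. Each stretch is read on the strand of the match, with the motif in capitals. Their positions are chr19:10678635-10678675 on the plus strand, chr3:89228297-89228337 on the plus strand and chr1:135259267-135259307 on the minus strand.
Pga5: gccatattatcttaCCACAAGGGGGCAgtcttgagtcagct
Muc1: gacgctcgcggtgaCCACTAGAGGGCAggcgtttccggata
Elf3: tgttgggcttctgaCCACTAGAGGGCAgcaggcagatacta

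TATA boxes at CpG-poor starts are shown as the 50 bases before the start of 4 of the 16 open genes that had the letters TATAAA beginning at positions -40 to -20, counted from the start base as 0. Ccl7 is a chemokine, S100a4 a calcium-binding protein, Hcrt the precursor of the orexin peptides and Agt the precursor of angiotensin. Capitals mark the TATA box. The stretches are chr11:82045662-82045711 on the plus strand, chr3:90603721-90603770 on the plus strand, chr11:100762932-100762981 on the minus strand and chr8:124569707-124569756 on the minus strand.
Ccl7: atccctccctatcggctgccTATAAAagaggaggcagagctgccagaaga
S100a4: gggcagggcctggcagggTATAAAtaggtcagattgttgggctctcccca
Hcrt: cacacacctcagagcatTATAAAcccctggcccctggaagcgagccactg
Agt: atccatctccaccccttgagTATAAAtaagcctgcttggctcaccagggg

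CpG-poor coding starts were rarely open. Of the 7469, 9.01% had a region of replicate 1 within 1000 bp and 11.9% a region of replicate 2 (10.4% ± 2.02 over both, SD, n = 2), against 82.5% and 87.8% of the 13338 other coding starts (85.2% ± 3.77). A shared region lay at 8.56% of the CpG-poor starts and at 82.0% of the others, and the share over all 20807 coding starts was 55.7%. The gap between the classes was many times the spread between the libraries. A shared region covered the start base itself at 210 CpG-poor starts (2.81%) and at 8002 others (59.99%). Of the CpG-poor starts, 33 were open in replicate 1 alone, 246 in replicate 2 alone and 6550 in neither.

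Within the CpG-poor class the open share climbed with the CpG ratio. It was 1.61% of 1679 starts with a ratio below 0.1, 5.68% of 1427 starts between 0.15 and 0.2, and 27.0% of 733 starts between 0.3 and 0.35. The next bin up, from 0.35 to 0.4, held 36.9% of 664 starts, so the limit cut through a gradual rise and not through a step. Members just inside the limit were those of Myt1l (ratio 0.3498), Mttp (0.3495) and Gstp2 (0.3494), with heights of 0.993, 2.38 and 1.31 in replicate 1 and of 1.28, 2.26 and 1.75 in replicate 2. Just outside it were Gpr151 (0.3501), Syn3 (0.3503) and Slc40a1 (0.3504), with heights of 0.698, 3.53 and 0.528 in replicate 1 and of 0.830, 4.87 and 1.01 in replicate 2. The height is the signal value that the authors deposited with each region, on their own scale.

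**Figure D1:**
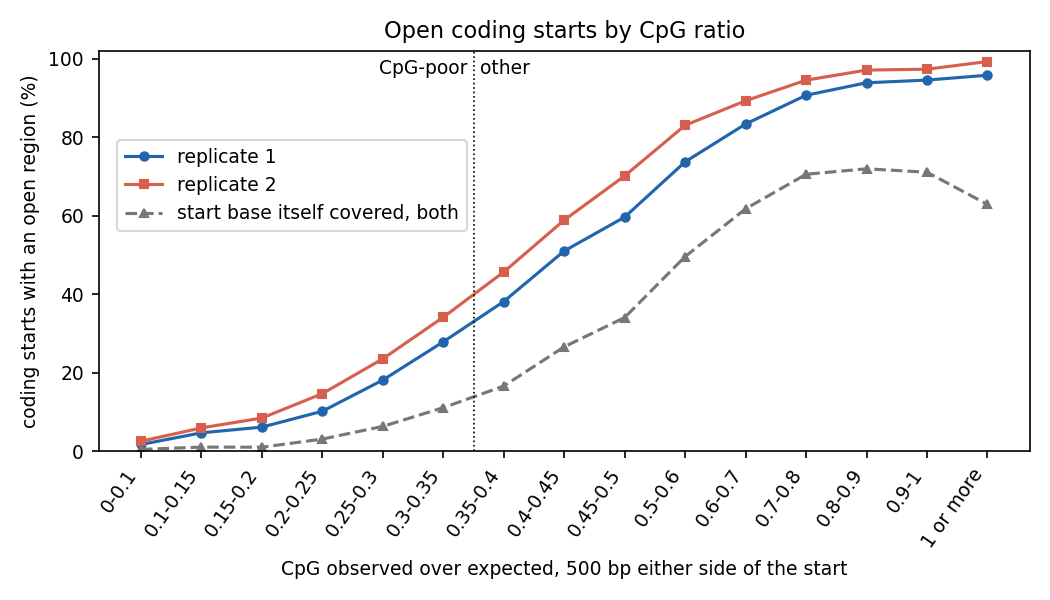
Share of coding starts (y axis, percent) with an open region within 1000 bp in replicate 1 (circles) and replicate 2 (squares), by the CpG ratio around the start (x axis), with the share whose start base lay in a shared region (triangles). The dotted line is the limit of 0.35; the share open in replicate 1 rises from 1.67% in the lowest bin to 95.8% in the highest, with no step at the limit.

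The members were of 2 kinds. An annotated start with a CpG ratio of 0.35 or more lay within 1000 bp of 244 of the 719 regions, and in 190 of these (77.9%) it was another start of the same gene. Their midpoints lay at a median of 643 bp downstream of the CpG-poor start. The CpG ratio over 500 bp on either side of the midpoint, a window wider than most regions, had a median of 0.543. Only 20.5% of them had a ratio below 0.35 in that window. The region counted for Nphp4, which encodes a protein of the primary cilium, was the highest of all members (10.7 and 11.0) and lay near a CpG-richer start of Kcnab2, a potassium channel subunit. That of Rrp9 (8.10 and 8.43), a ribosomal RNA processing factor, lay near one of Parp3, and those of Xrcc1 (6.33 and 6.69), a DNA repair scaffold, and Unc45a (5.68 and 6.95), a myosin chaperone, near inner starts of their own genes. The remaining 475 regions had no such start within 1000 bp. These are called stand-alone below, at 442 genes. In the same window around the midpoint, 88.4% of them had a ratio below 0.35. For regions over the start, that window largely repeats the one used by the rule that chose the members. This division uses the annotation and the sequence only, and it was made after the values had been seen.

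Stand-alone members sat around their starts. Of the 475, 175 (36.8%) covered the start and 251 (52.8%) came within 100 bp of it, and their median midpoint was 20 bp upstream. Other promoter regions covered the start in 52.3% and came within 100 bp in 62.1%. In the annotation, the midpoints of 201 stand-alone members fell between genes, 121 in a UTR, 108 in an intron, 26 in a coding exon and 19 in an exon of a noncoding transcript. They were compact, with a median width of 200 bp against 240 bp for other promoter regions. Only 5 of them lay with at least 50% of their bases in masked repeats. A copy elsewhere in the genome, of at least 90% identity over 90% of the length, was found for 24, among them the regions of C1ra, C1rb, Cyp4f16, Zfp457 and Snrpn, whose reads could be shared between copies.

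**Figure D2:**
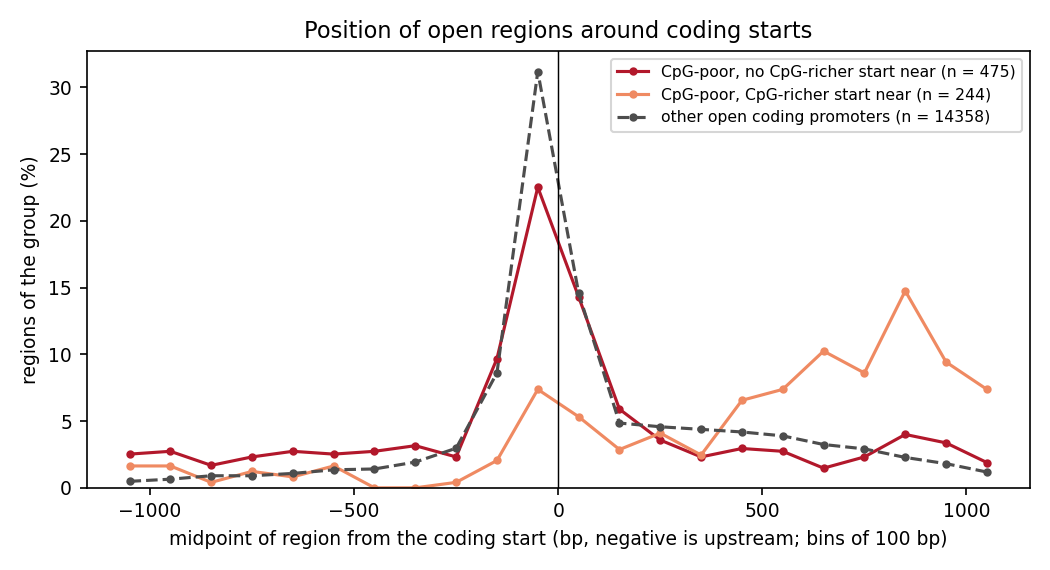
Midpoints of open regions from the coding start (x axis, bp in bins of 100 bp) as a share of each group (y axis, percent). Stand-alone members (n = 475) and other promoter regions (n = 14358) peak just upstream of the start, with 22.5% and 31.2% of regions in the bin that ends at the start, while members with a CpG-richer start near (n = 244) are spread downstream of it.

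Members were lower than other promoter regions in both libraries. Their median height was 1.28 in the first library and 1.54 in the second (1.41 ± 0.183 over both, SD, n = 2), against 1.92 and 2.59 for other promoter regions (2.26 ± 0.471). The log2 ratio of the medians was -0.58 in replicate 1 and -0.75 in replicate 2 (-0.67 ± 0.12, SD, n = 2). Stand-alone members had medians of 1.14 and 1.34, and members near a CpG-richer start 1.53 and 2.02. Only 90 of the 475 stand-alone members (18.9%) exceeded the median of other promoter regions in both libraries, as did 46.7% of those regions themselves. The lowest and the highest member heights were 0.157 and 10.7 in replicate 1, and 0.109 and 11.0 in replicate 2.

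The difference in height varied with position. Over the start itself, the 175 stand-alone members had median heights of 1.19 and 1.34, against 2.75 and 3.53 for 7515 other promoter regions. At 101 to 500 bp from the start the medians were 1.13 and 1.31 for 99 stand-alone members and 1.12 and 1.68 for the others. At 501 to 1000 bp the order had turned, with 1.12 and 1.41 for 125 stand-alone members against 0.918 and 1.28 for 2120 others. Median heights of the stand-alone members thus barely changed with distance, while those of other promoter regions fell steeply.

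**Figure D3:**
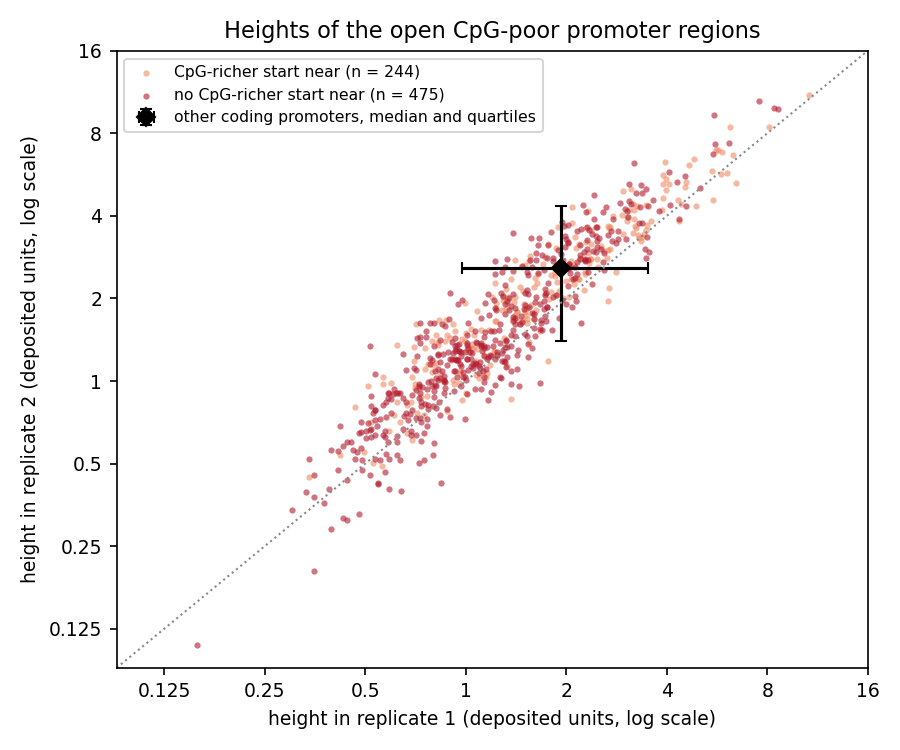
Height of each of the 719 members in replicate 1 (x axis) and replicate 2 (y axis), deposited units on log scales, coloured by whether a CpG-richer start lies within 1000 bp. The black diamond gives the medians of other promoter regions (1.92 and 2.59) with their quartiles; most members lie below it, and 590 of 719 (82.1%) lie above the dotted line of equal height.

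The libraries ranked the members alike. Across the 719 regions, Spearman's rho between the heights was 0.926, a description over regions that share their libraries. Heights were greater in replicate 2 in 590 members (82.1%), with a median log2 ratio of 0.30, against 0.37 in other promoter regions. The strongest shifts toward replicate 2 were at Slc4a10, a bicarbonate transporter (0.515 and 1.34), Fkbp5, a chaperone of the glucocorticoid receptor (1.38 and 3.47), and Aanat, an enzyme of melatonin synthesis (0.899 and 2.10). In the other direction stood Slco1c1, a thyroid hormone transporter (0.842 and 0.426), Snrpn, an imprinted splicing gene (0.352 and 0.202), and Chadl, a matrix protein (1.67 and 0.983).

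Replicate 2 held many CpG-poor promoter regions that replicate 1 lacked. Of 794 such regions of replicate 1, 90.6% were found in replicate 2, the same share as for other promoter regions (90.6%). Of 1141 regions of replicate 2, 63.7% were found in replicate 1, against 78.4% of other promoter regions. The 414 regions seen in replicate 2 alone were low, with a median height of 0.623, and those it shared with replicate 1 had a median of 1.54. With the longer list of replicate 1, 83.2% were found.

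The highest stand-alone members belonged to genes of varied function. Tef, a circadian transcription factor, had a region at chr15:81802501-81802720, in the UTR 80 bp from its start, with heights of 7.55 and 10.5. Tldc1 had a region over its start at chr8:119778361-119778580, with heights of 8.64 and 9.83 and a CpG ratio of 0.345 at the start, near the limit. That of C1qtnf6, which encodes a secreted C1q-like protein, was 725 bp away at chr15:78532141-78532420, with heights of 8.37 and 9.88. Gstm7, a glutathione transferase, had heights of 6.17 and 7.35 at chr3:107931681-107931920, over its start. All 4 exceeded the upper quartile of other promoter regions, which was 3.51 in replicate 1 and 4.34 in replicate 2. The remaining members among the 10 highest were Cabyr (6.20 and 8.43), which had a CpG-richer inner start near, and Tmem270 (5.54 and 9.33), a stand-alone region 528 bp from its start. Unc45a, the last of the 10, tied in rank with Trp53inp2 (5.84 and 6.83).

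At the low end, Zbp1, a sensor of nucleic acids, had heights of 0.157 and 0.109, and Ebi3, a cytokine subunit, 0.302 and 0.339. The region of Ebi3 was also among the widest members at 620 bp, after those of Dnajc14 (680 bp) and 2900011O08Rik (640 bp). Agtr1b, an angiotensin receptor (0.333 and 0.393), Snrpn and Pudp (0.396 and 0.290) made up the rest of the 5 lowest.

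Footprints are short stretches inside open DNA that a bound protein shields from the enzyme. At least 1 deposited footprint in both libraries was held by 670 of the 719 members (93.2%), against 85.7% of other promoter regions and 86% of all open coding promoter regions. Among regions over the start the order was the other way, with 95.7% of 210 members and 97.9% of 7515 other promoter regions. The members differ from the others in position and height, which move with footprints, and the part of either was not tested. Over the start itself, stand-alone members had 1.43 and 1.60 footprints per 100 bp and other promoter regions 1.70 and 1.86. Among all open coding promoter regions ranked by summed height and cut into 5 equal classes, stand-alone members had more in the lowest class, with 1.19 and 1.26 per 100 bp in 170 members and 0.767 and 0.808 in 2799 others. Per 100 bp they also had more in the next class (1.35 and 1.60 against 0.994 and 1.23) and in the middle one (1.59 and 1.96 against 1.48 and 1.72). In the class above, values were 1.78 and 2.02 against 1.85 and 1.97, and in the highest, with 13 stand-alone members, 1.75 and 1.92 against 2.08 and 2.16. Counted per region, stand-alone members had more in the lowest class only, with means of 2.30 and 2.42 against 1.67 and 1.76. In the next class the means were 2.80 and 3.29 against 2.93 and 3.63, and in the middle one 3.35 and 4.13 against 4.27 and 4.98. The most footprints were in regions of Gpr37, an orphan receptor of myelinating cells (9 and 11), Kcnip3, a calcium sensor of potassium channels (10 and 10), Gkap1 (11 and 7), Plppr4, a membrane protein of synapses (5 and 13), and Cish, an inhibitor of cytokine signalling (8 and 9), which tied with that of 2610044O15Rik8 (6 and 11). Of these 6 only the region of Kcnip3 was stand-alone.

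Lists of genes differed widely in how many of their CpG-poor starts were open, set against 8.56% over all CpG-poor starts. The lists were not matched for CpG ratio, with which the open share climbed inside the class. Astrocyte genes stood highest, with 7 of 10 open in both libraries, all through stand-alone regions. Gfap had heights of 3.00 and 4.24 at chr11:102900901-102901100, with 3 footprints in each library. Fabp7, a fatty acid carrier of radial glia and astrocytes, had heights of 3.46 and 2.82 at chr10:57784741-57784920. Aldoc, the brain form of aldolase, had 1.50 and 1.49, and S100b, a calcium-binding protein, 0.742 and 0.950. Mlc1 (0.930 and 1.09), Slco1c1 (0.842 and 0.426) and Acsbg1 (0.515 and 0.661) were lower. Aldh1l1, a folate enzyme, and Aqp4, the water channel of astrocyte endfeet, were open in neither library at the outermost start. That is the only start of each gene counted in these lists, so inner starts may be open.

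Among monoamine and acetylcholine receptors, 5 of 11 CpG-poor starts were open, again all through stand-alone regions. Chrm1, the muscarinic receptor of pyramidal cells, had heights of 2.02 and 2.57 and Chrm4 had 1.75 and 2.80, both inside the gene, 392 and 708 bp from the start. Htr3a, the serotonin-gated ion channel, was open over its start (1.23 and 1.82). Chrna4, a nicotinic subunit (0.691 and 0.890), and Htr2b, a serotonin receptor (0.635 and 0.513), were low in both libraries. Adra1b, Adrb3 and Chrna2 were among the 5 open in neither.

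Of 29 synaptic and vesicle genes 5 were CpG-poor (17.2%), and 2 of these were open, Camk2a, a kinase of excitatory synapses (1.76 and 2.28), and Sv2a, a vesicle protein (1.21 and 1.97). Dlg4, Shank2 and Synpo were open in neither library at the outermost start. Gria1, a subunit of glutamate receptors, was open (1.04 and 1.55) near a CpG-richer start of the same gene. Neuropeptide genes had 3 open of 10, namely Hcrt (3.46 and 5.03), Vgf (1.94 and 3.81) and Cck (0.522 and 0.710). The region of Hcrt lay in a coding exon 891 bp from the start shown above, and that of Vgf 972 bp from its own, so neither lay at the start itself. Potassium channel genes and their subunits had 3 open of 28 (10.7%), near the 8.56% over all CpG-poor starts. Sodium and calcium channel genes had 2 of 11 (18.2%).

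Oligodendrocyte genes had 2 of 11 open, Gpr37 (0.962 and 1.07) and Gpr17, a receptor of maturing precursors (0.899 and 0.737). Of 20 CpG-poor microglial and complement genes 1 was open in both libraries, Cd68, a lysosomal protein of macrophages (1.03 and 1.28). The CpG-poor starts of C1qa, C1qb and Aif1 were open in neither. No endothelial or mural start of 14 and no red blood cell start of 15 was open in both libraries.

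Some lists of genes from other organs lay well below the share over all CpG-poor starts. Olfactory receptors had 4 open of 1078 and vomeronasal receptors 0 of 324, keratin genes 3 of 84 and serpins and defensins 4 of 119. The starts of these lists are themselves part of the 7469 behind that share. Striated muscle genes, at 2 of 18 (11.1%), lay above that share. Hepatocyte and plasma protein genes, at 1 of 18 (5.56%), and germ line genes, at 0 of 11, lay below it. These lists are too short to set apart from it. The olfactory receptors were low, with Olfr536 at 0.735 and 0.808 and Olfr325 at 0.767 and 0.726. Cytochrome P450 genes had 8 open of 76 (10.5%), near the 8.56% over all CpG-poor starts. All 8 were in the Cyp4f and Cyp2j subfamilies, which act on fatty acids. Cyp4f13 was the highest of them (4.54 and 5.60), followed by Cyp4f16 (2.48 and 3.07), which has a near-identical copy, and Cyp2j9 (1.29 and 2.04). Cyp11b1, Cyp11b2 and Cyp17a1, enzymes of steroid synthesis, were open in neither.

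Cytokine and chemokine genes had 8 open of 83 (9.64%), near the 8.56% over all CpG-poor starts. Il6 led them with heights of 3.08 and 5.24, in an intron 87 bp from its start, and Il12b (1.22 and 1.84), Il18 (1.28 and 1.27), Ccl2 (1.11 and 1.34) and Il33 (0.685 and 0.655) were lower. Zfp-named genes, which encode zinc finger proteins, had 17 open of 68, of which 8 were through stand-alone regions, with Zfp46 (3.17 and 3.46) and Zfp457 (2.82 and 3.17) the highest. Solute carriers had 16 open of 114, 11 of them stand-alone. S100 genes had 3 open of 9, S100a4 (1.14 and 1.32), S100a16 (1.04 and 1.14) and S100b. A regional count within 1000 bp does not show which start was used, and expression was not measured here.

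**Figure D4:**
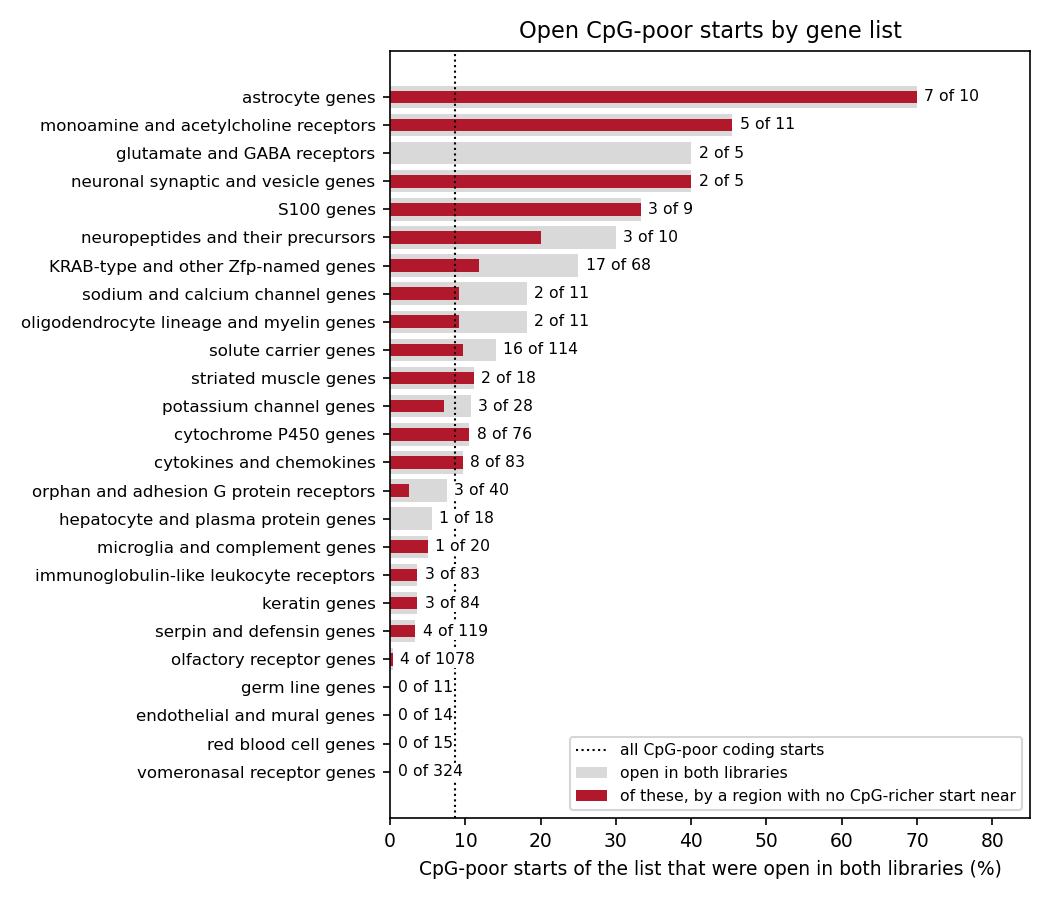
Share of the CpG-poor starts of each list (x axis, percent) that were open in both libraries (grey bars, with counts), and the share open through a stand-alone region (red bars). The dotted line is the 8.56% over all CpG-poor starts; astrocyte genes reach 7 of 10 and vomeronasal receptors 0 of 324.

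In 21 of the 24 motifs searched, the share of stand-alone members with the letters was nearer to that of distal regions than to that of other promoter regions. Members at all distances up to 1000 bp from the start were pooled for this count. The 21 include the GC box, the cyclic AMP element and the NRF1 motif. Their letters hold a CpG and are limited by the rule that chose the members, so their nearness carries no weight. Windows of 201 bp around region midpoints were read on both strands, in 475 stand-alone members, 14358 other promoter regions and 26224 distal regions. The CTCF motif was in 38 stand-alone members (8.0%), 0.898% of other promoter regions and 12.7% of distal regions. The NFI letters TTGGCA, of a factor family active in glia and neurons, were in 18.3%, 7.19% and 21.7%. CAGATG, an E-box bound by NEUROD factors of excitatory neurons, was in 16.4%, 6.39% and 23.2%, and CAGCTG, an E-box of the ASCL type, in 22.7%, 11.0% and 19.99%. AP-1, an activity-induced factor with the letters TGANTCA, gave 6.95%, 2.04% and 6.15%. The GC box GGGCGG of SP factors was in 16.2%, 57.6% and 9.24%, but its letters hold a CpG and are limited by the rule that chose the members. Base composition also differed, with a median GC content of 55.7%, 65.7% and 51.7%. Its part in these shares was not tested. The shares also varied with distance. Over the start itself, the NFI letters were in 14.3% of stand-alone members and 6.39% of other promoter regions. CAGATG was in 9.71% and 5.42% there, nearer to other promoter regions than to the 23.2% of distal regions. At 1 to 100 bp from the start, NFI letters and CAGATG were in 27.6% and 19.7% of 76 stand-alone members.

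CCAAT, bound by NF-Y at many promoters, did not separate the groups, at 27.6%, 28.2% and 25.05%. It was more common nearer the start, in 37.7% of stand-alone members that covered it and in 33.9% of other promoter regions that did. Of those 501 to 1000 bp away, 19.2% and 19.3% held it.

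**Figure D5:**
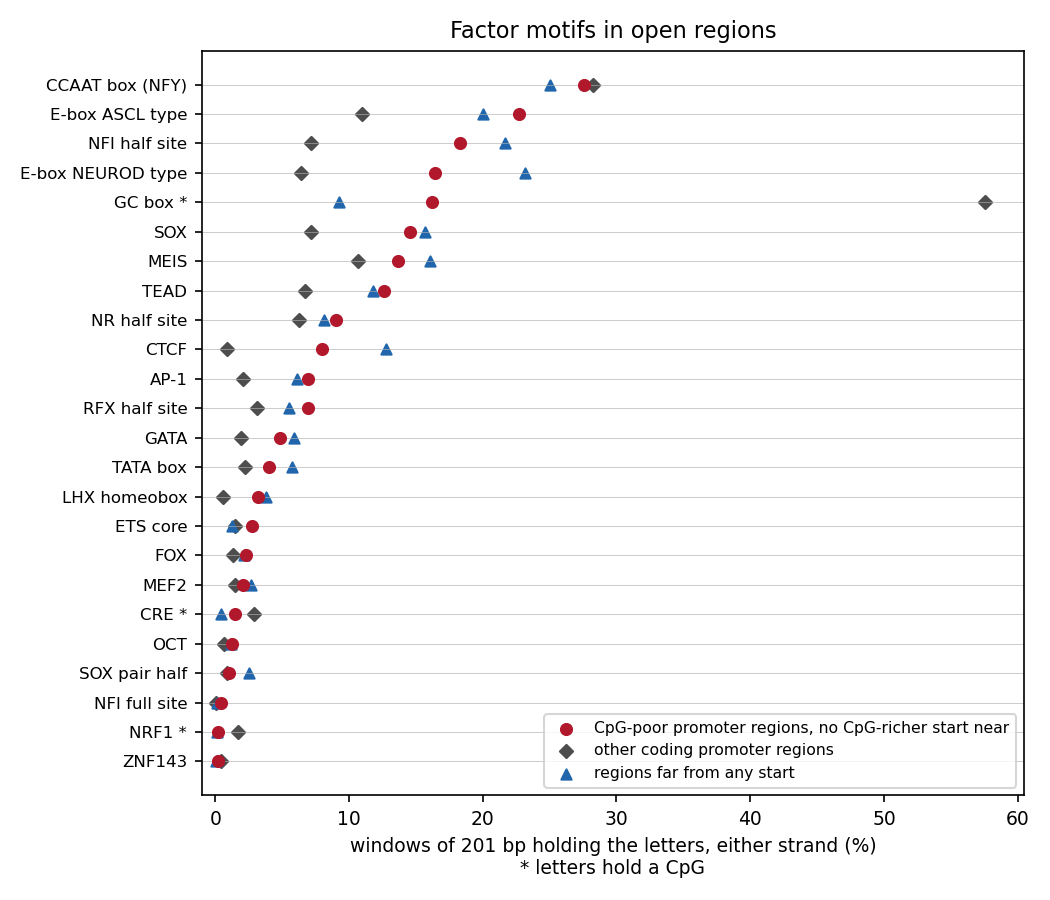
Share of 201-bp windows (x axis, percent) holding the letters of each of 24 motifs (y axis) on either strand, for stand-alone members (circles), other promoter regions (diamonds) and distal regions (triangles). With all distances from the start pooled, the circles for CTCF, NFI and both E-boxes lie nearer the triangles than the diamonds. For the GC box, which holds a CpG, the diamond stands far to the right at 57.6%.

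CTCF matches lay mostly away from the start. They were in 2.86% of the 175 stand-alone members over the start, 9.21% of the 76 within 100 bp, 6.06% of the 99 at 101 to 500 bp and 20 of the 125 beyond (16%). In other promoter regions the share went from 0.532% over the start to 1.84% beyond 500 bp. The 38 members with a match were higher, with medians of 1.58 and 2.09 against 1.13 and 1.32 in the 437 without one. Of 38 matches inside stand-alone members, 35 (92.1%) were covered by a footprint in both libraries, as were 86 of 145 (59.3%) in other promoter regions. The match at Gfap shown above was 88 bp upstream of the start and was covered in both.

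RFX letters, GTTGCCA, were in 6.95% of all stand-alone members and 3.13% of other promoter regions. RFX factors drive genes of cilia and of class II antigen presentation. The letters were in 9.71% of the 175 stand-alone members over the start and in 3.38% of the 7515 other promoter regions there. At 501 to 1000 bp from the start the shares were nearly as far apart, with 10 of 125 stand-alone members (8.0%) and 2.88% of others, and between these distances 2 of 76 and 4 of 99 stand-alone members held them. At fixed windows from -150 to 50 they were in 9.52% of the 210 covered CpG-poor starts, 2.93% of the 6550 CpG-poor starts open in neither library and 3.29% of the 8002 other covered starts. Of 36 matches inside stand-alone members 21 (58.3%) were covered by a footprint in both libraries, against 33.2% of 551 in other promoter regions. In H2-Aa both the RFX letters and the cyclic AMP element next to them were covered in both libraries. With the CCAAT box downstream, these are the letters of the textbook X and Y boxes of class II genes. The same 160 bp before the annotated starts of H2-Eb1 and H2-Ab1 held neither the exact letters GTTGCCA nor TGACGTCA, and CCAAT was there in H2-Eb1 only. Only exact letters were searched, so variant forms of the X and Y boxes were not looked for and may be present. The region of H2-Aa had heights of 2.12 and 2.04 at chr17:34287781-34288000, with 4 footprints in each library. Fez1 had heights of 2.59 and 2.93 at chr9:36821741-36821940, also with 4 in each.

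TATAAA beginning at -40 to -20 was found at 2 of the 210 covered CpG-poor starts (0.952%), those of Ccl7 and Myh11, a smooth muscle myosin. It stood at 16 of the 639 that were open within 1000 bp (2.50%), close to the 2.48% of all 20807 coding starts. It stood at 357 of the 6550 that were open in neither library (5.45%) and at 54 of the 8002 other covered starts (0.675%). The same letters in a window 200 bp farther upstream were at 0.952% of the covered CpG-poor starts, 1.10% of the open, 1.15% of the closed and 0.275% of the other covered starts. The 442 starts open through stand-alone regions had it at 14 (3.17%), against 3 (0.679%) in the upstream window. The share at covered CpG-poor starts rests on a count of 2, and its difference from the other shares was not tested. Ccl7 had heights of 0.490 and 0.475 and Myh11 0.779 and 1.63. The regions of S100a4 (756 bp from the start), Hcrt and Agt (344 bp, 1.13 and 1.04) did not reach the TATA box shown.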

How the data were processed

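DNase-seq was measured in 2 libraries of 1 group. For each, the authors deposited a shorter and a longer list of open regions on mm10, a footprint list and, base by base, a false discovery rate for cutting. The region height is a signal value that the authors deposited, with unstated scaling, so it only ranks and describes regions. Caller and thresholds are unstated in the sources used here. The deposited footprint p-value is 0.01 in every row and was read as a limit. The deposited false discovery rates, read as adjusted p-values, reach 0.05, and each member held a base under 0.001 in both libraries.

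Starts came from GENCODE mouse M21 and sequence from RefSeq's GRCm38. The heights of members in replicate 2 are those of the highest overlapping region. Reads of a hybrid strain set on this reference may be lost at CAST/EiJ variants, which was not tested. A motif match counted as covered where a footprint overlapped at least 50% of the shorter of the pair. Copies were searched with BLAST 2.17.0. The code, in Python 3.11.15 with pandas 2.3.3 and pysam 0.24.0, was tested on simulated data. Lists and motifs held 25 and 24 entries. Named genes are the 10 highest and 5 lowest members, those with most footprints, greatest width, most extreme library ratios or nearest the limit, and per list up to 3 open and 3 closed genes, with further members chosen after their values were seen. The members and lists were chosen with earlier results of these data known. A gene of 1 list is not reported here.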

Additional observations from a re-analysis of the deposited data

How the results depend on the processing

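Every alternative left members lower than other promoter regions and CpG-poor starts rarely open. The number of members, 719, was 1142 with the longer lists, 412 with the stronger 50% of regions, 456 and 1343 at distances of 500 and 2500 bp, 308 and 1400 at CpG limits of 0.25 and 0.45, 403 when every start of the gene had to be CpG-poor, 475 without a CpG-richer start within 1000 bp, and 794 to 1141 with 1 library left out. In the same order the open share, 8.56%, became 12.3%, 5.14%, 5.72%, 14.4%, 4.83%, 13.6%, 5.98%, 5.92%, and 9.01% to 11.9%. The median height, 1.41, was 0.974 with the longer lists, 2.18 with the stronger 50% and 1.09 to 1.17 with 1 library left out, where regions of that library alone count. The log2 ratio of heights, -0.67, was -0.54 with the stronger 50%, -0.79 with reciprocal overlap of 50%, -0.98 and -0.46 at 500 and 2500 bp, -0.85 when every start had to be CpG-poor, -0.85 without a CpG-richer start, and -0.77 to -0.52 with 1 library left out. The footprint share, 93.2%, was 82.7% with the longer lists, 99.3% with the stronger 50%, 96.3% with reciprocal overlap, 92.5% and 91.1% at 500 and 2500 bp, 94.8% and 91.3% at limits of 0.25 and 0.45, 93.5% when every start had to be CpG-poor, and 90.3% to 92.7% with 1 library left out. The TATAAA share, 2.50%, was 3.15% with the longer lists, 2.11% and 2.80% at 500 and 2500 bp, 2.85% and 1.68% at 0.25 and 0.45, 3.11% without other genes' starts near, 3.77% when every start had to be CpG-poor, 3.17% without a CpG-richer start, and 2.53% to 2.93% with 1 library left out. Apart from the changed sets of regions themselves, the cause was not tested. The setting without a CpG-richer start was chosen after seeing the data. The share found in the other library (mean of both directions 77.1%) stayed within 64.3% to 83.0%. No paired analysis was possible because there was only 1 group. Unknown depth limits any reading of regions seen in replicate 2 alone.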

Other observations

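Further groups of immune and cilia genes among the stand-alone members were chosen after their values were seen, and nothing was tested on them. Only open genes were picked, and closed genes of these groups were not counted, so no share can be given. Among listed immunoglobulin-like leukocyte receptors, 3 of 83 CpG-poor starts (3.61%) were open in both libraries, below the 8.56% over all CpG-poor starts. Members over the start included the class II genes H2-Aa (2.12 and 2.04), H2-Ab1 (2.46 and 3.65) and H2-Eb1 (3.64 and 4.58). Classical complement proteases formed a cluster on chromosome 6, with C1rl (1.28 and 2.09), C1ra (1.01 and 1.47), C1rb (1.52 and 2.14) and C1s1 (1.31 and 1.91), of which C1ra, C1rb and C1s1 have near-identical copies. Members at interferon-induced genes included Irf9 (2.45 and 2.97), Oas1c (1.02 and 1.10), Samd9l (0.955 and 1.29), Trim21 (0.861 and 1.01), Igtp (0.754 and 0.825) and Rsad2 (0.484 and 0.710). The region of Samd9l also has a near-identical copy.

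Members over the starts of genes of motile cilia included those of Cfap44 at 2.87 and 3.53, of Rsph14 at 2.40 and 2.98, of Capsl at 1.97 and 3.68, of Spef2 at 0.880 and 0.792 and of Spag17 at 0.572 and 0.464. Neuronal genes outside the lists included Pcp4, a calmodulin-binding peptide (3.38 and 4.86), Fez1, Stmn4, a tubulin-binding protein (2.14 and 1.96), Gng3, a G protein subunit (1.41 and 1.69), Celf3, an RNA-binding protein (1.71 and 1.95), and Neurod6, a transcription factor of pyramidal cells (2.08 and 1.86).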
